A study of Rattus norvegicus with 20 samples.

Results

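Contusion of the upper thoracic spinal cord was set against no injury in the soleus of Sprague-Dawley rats, whatever exercise followed the contusion. The contused side was the mean of 3 group means, averaged on the log2 scale, and the other side was the uninjured group. The 3 contused groups were chosen by their labels: rats contused and left without exercise, rats contused and then swum (SWIM), and rats contused and then walked in shallow water (SWW). Each had 4 libraries, as did the uninjured group, so 16 of the 20 libraries of the series entered the comparison. The other 4 came from rats with a complete transection at the same level.

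All contused rats received a 25 g-cm contusion at T2 with the NYU Impactor after laminectomy. The label texts do not say whether uninjured rats had a laminectomy. Per the design text every animal, uninjured ones included, was moved to a small cage after 4 days, so the uninjured muscle is that of a confined rat. Swimming and walking began 2.5 weeks after injury and were done on 5 days a week for 10 weeks. Muscle was taken 13.5 weeks after injury in both exercised groups and 11.5 weeks after injury in unexercised contused rats. Uninjured rats carry the label 11.5 weeks, and transected rats 8.5 weeks. The labels give neither age nor sex. Exercise and the later time cannot be told apart within the contused groups, and 2 of the 3 contused groups were later than the uninjured one. No uninjured group was exercised, so contusion and exercise cannot be told apart in the mean of the contused groups.

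The soleus is a postural calf muscle built largely of slow, oxidative fibres that hold the hind limb against gravity. Its fibres keep their slow contractile proteins, mitochondria and mass through steady motor neuron activity and loading. A thoracic contusion spares the lumbar motor neurons that reach the muscle, while it damages part of the descending tracts that drive them, so the muscle stays innervated and is used less. In rodents, loss of descending drive or of load is known for fibre atrophy, a shift towards faster myosins and lower oxidative enzyme content. Water carries the body weight during swimming, and shallow water carries part of it during walking.

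The deposited table names genes by Ensembl identifier alone, and the gene table used here paired 0 of 24613 identifiers with a symbol. Marker genes of slow muscle could not be looked up, so the tissue label was not checked against them, and no pathway or cell type list was counted. Genes are therefore described by direction, size, abundance and evenness between groups, and 4 identifiers are named. No sequence is printed, since promoters and microRNAs were listed by symbol. The libraries came from whole muscle, where fewer cells of a type and less RNA per cell cannot be told apart.

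Library totals ran from 21165832 to 36604027 counts in contused muscle and from 26195066 to 39729930 in uninjured muscle. Of 24613 genes, 13398 passed the filter on low counts. Log2 fold changes had a median standard error (SE) of 0.17 for the mean of the 3 contused groups against uninjured, and of 0.20 for each contused group against uninjured. On principal components of these 16 libraries, the first component held 28.9% of the variance. Swum libraries lay between 15.0 and 73.6 on it, walked libraries between -13.9 and 22.4, and unexercised contused libraries between -11.3 and -1.29. Uninjured libraries 1 to 4 lay at -37.6, -18.1, -20.8 and -45.5, below every contused library. Swimming library 2, at 73.6, stood apart from its group. The design text speaks of muscle from each animal and no label ties a library to an animal, so p-values measure the spread between these samples.

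In the mean of the contused groups, exercised ones included, more genes were called lower than higher. Of 13398 genes tested, 349 rose and 603 fell in the mean of the contused groups against uninjured muscle (edgeR quasi-likelihood test, Benjamini-Hochberg adjusted p below 0.05). That is 7.11% of genes tested, with 2.6% higher and 4.5% lower. The genes that rose had a median log2 change of 0.70, with quartiles of 0.51 and 1.01, and those that fell a median of -0.56. Changes over 1.5-fold were found for 221 genes that rose and 272 that fell. Changes over 2-fold were found for 89 genes that rose and 110 that fell, and over 4-fold for 19 and 19. When libraries were scaled by their totals alone, 180 genes rose and 527 fell, which lowers the higher genes to 25.5% of calls, against 36.7% with the scaling used.

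**Figure D1:**
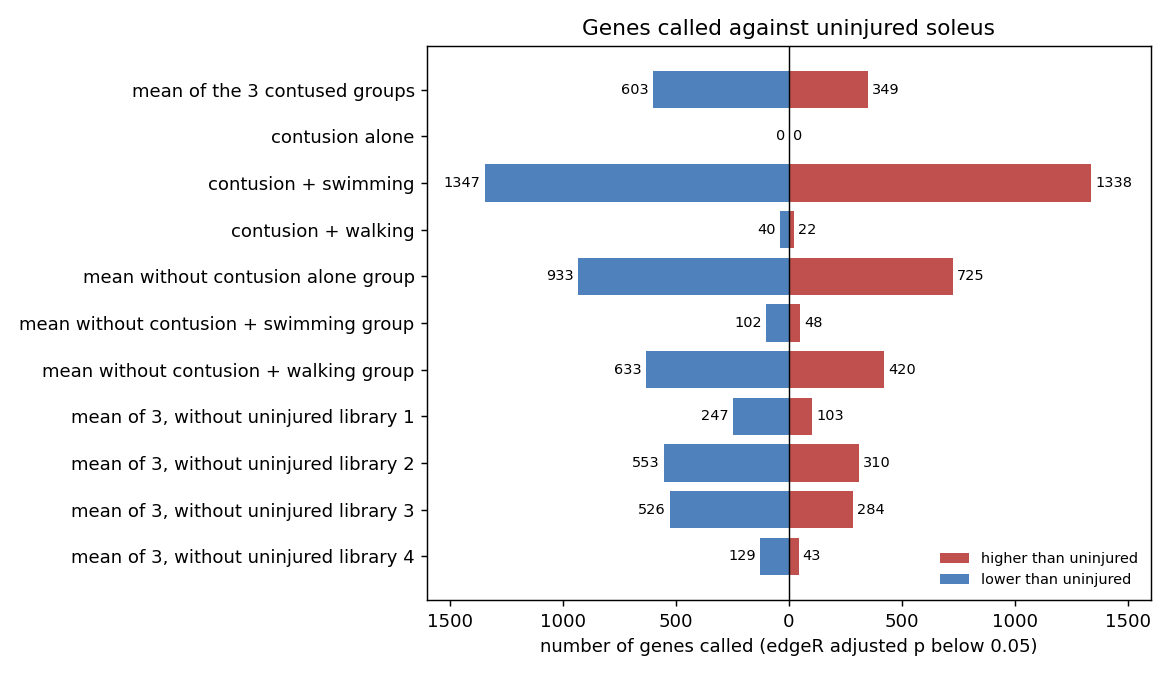
Number of genes called against uninjured soleus (edgeR adjusted p below 0.05), higher to the right and lower to the left, for the mean of the 3 contused groups, for each group by itself, for means that leave out 1 contused group, and without each uninjured library. The mean of 3 groups has 349 higher and 603 lower genes, and without the swimming group 48 and 102.

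The count rested on the swimming group and on individual uninjured libraries. Without the swimming group, the mean of unexercised and walked contused rats had 48 genes higher and 102 lower. All 150 were among the 952 genes called with all 3 groups, in the same direction. Both means use these contused libraries and the same uninjured ones, so the overlap is a description. Without the unexercised group the number was 1658, and without the walking group 1053. Leaving out uninjured library 1 gave 350 genes, and leaving out uninjured library 4 gave 172; these libraries lay farthest from the contused ones on the first component. Leaving out any other single contused or uninjured library gave 732 to 1142 genes. Without swimming library 2 the number was 1087.

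ENSRNOG00000019745 had the highest change among called genes that averaged at least 1 CPM (counts relative to the scaled library size) and whose contused and uninjured libraries did not overlap. It stood at 195, 112, 248 and 10.3 CPM in unexercised contused rats, at 413, 8209, 494 and 112 CPM in swum rats and at 162, 155, 292 and 502 CPM in walked rats, against 5.88, 7.95, 2.40 and 3.69 CPM in uninjured rats. Every contused library lay above every uninjured one, and the span among the contused libraries was wide, from 10.3 CPM in contusion library 4 to 8209 CPM in swimming library 2. The log2 fold change, averaged over the contused groups, was 6.49 (SE 1.24, edgeR adjusted p = 6.23e-03). Without swimming library 2 it was 5.57 (adjusted p = 1.32e-03), and without the swimming group 5.31 (0.0408). It was 7.32 (3.09e-03) without the unexercised group, 7.51 (0.0238) with the 12 contused libraries as 1 group, 5.51 (6.51e-04) with voom, and 5.55 (1.84e-03) without swimming library 2 and transection library 3. By group, the log2 change was 4.82 in unexercised contused rats, where it did not pass (edgeR adjusted p = 0.181), 8.85 after swimming (1.12e-03) and 5.80 after walking (0.0504).

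ENSRNOG00000013552 was the next highest under the same limits. It had 11.9, 2.95, 10.2 and 8.89 CPM in unexercised contused rats, 248, 65.2, 10.6 and 14.6 CPM in swum rats and 27.0, 38.6, 98.7 and 21.1 CPM in walked rats, against 0.567, 2.60, 1.23 and 0.662 CPM in uninjured rats. Contused and uninjured libraries did not overlap, though contusion library 2, at 2.95 CPM, came close to uninjured library 2, at 2.60 CPM. The log2 fold change, averaged over the contused groups, was 4.61 (SE 0.91, edgeR adjusted p = 7.73e-03). It was 5.26 (0.0128) without uninjured library 2, 5.57 (2.80e-03) without the unexercised group and 3.91 (0.0464) without the swimming group. The change passed after swimming, at a log2 value of 6.01 (edgeR adjusted p = 1.46e-03), and after walking, at 5.14 (0.0313), and not in unexercised contused rats, at 2.69 (0.302). The difference among the 3 contused groups did not pass for this gene (adjusted p = 0.112) or for ENSRNOG00000019745 (0.0860).

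ENSRNOG00000001736 had the lowest change among called genes that averaged at least 1 CPM and whose contused and uninjured libraries did not overlap. Its values were 7.65, 7.88, 1.51 and 8.81 CPM in unexercised contused rats, 1.98, 1.06, 2.43 and 2.32 CPM in swum rats and 5.48, 11.6, 2.45 and 7.01 CPM in walked rats, against 58.8, 30.7, 37.8 and 58.0 CPM in uninjured rats. The highest contused library, walking library 2, held 11.6 CPM and the lowest uninjured library 30.7 CPM, so the groups stood well apart. The log2 fold change was -3.40 (SE 0.39, edgeR adjusted p = 2.32e-04). The plain mean over 12 contused libraries, not taken on the log2 scale, was 5.01 ± 3.50 CPM, against 46.4 ± 14.2 CPM over 4 uninjured ones (SD). By group the log2 change was -2.84 in unexercised contused rats (edgeR adjusted p = 0.0729), -4.56 after swimming (3.98e-04) and -2.80 after walking (0.0321), and the difference among these groups did not pass (0.165).

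ENSRNOG00000007943 had the next lowest change, again among non-overlapping called genes of at least 1 CPM. It had 1.54, 3.07, 1.42 and 1.61 CPM in unexercised contused rats, 0.578, 0.0883, 0.469 and 0.643 CPM in swum rats and 0.666, 3.00, 2.07 and 3.23 CPM in walked rats, against 5.28, 3.81, 3.88 and 5.30 CPM in uninjured rats. The gap between the highest contused library, at 3.23 CPM, and the lowest uninjured one, at 3.81 CPM, was narrow, and swimming library 2 held 2 counts of this gene. The log2 fold change was -1.86 (SE 0.39, edgeR adjusted p = 8.46e-03). It was -1.14 without the swimming group and no longer passed (adjusted p = 0.205), and it did not pass without uninjured library 4 (-1.78, 0.0532). By group, the log2 change passed only after swimming, at -3.30 (edgeR adjusted p = 1.37e-03). It did not pass in unexercised contused rats, at -1.25 (0.390), or after walking, at -1.02 (0.391). The difference among contused groups did not pass (adjusted p = 0.0834).

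**Figure D2:**
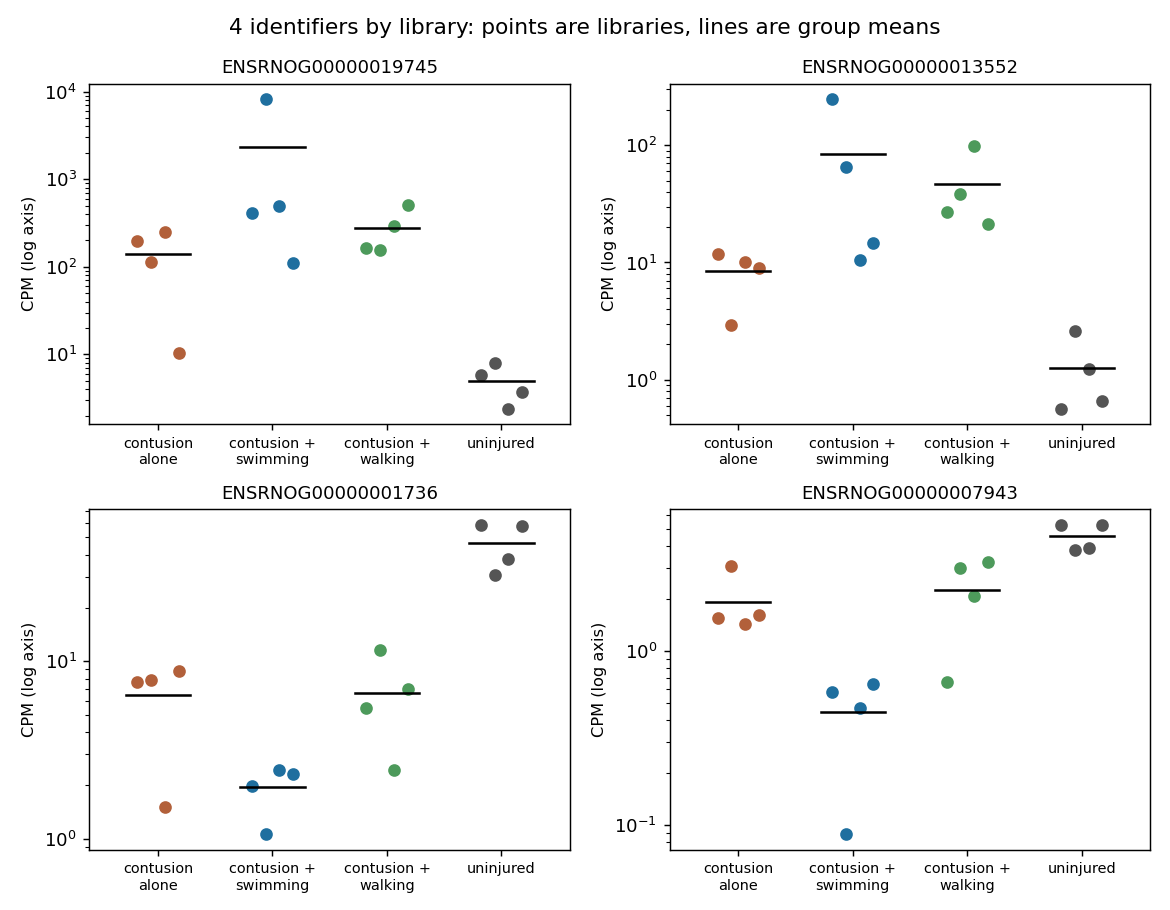
CPM on a log axis for the 4 named identifiers in each library (points) of the 3 contused groups and of uninjured rats, with lines at group means. In each panel all 12 contused libraries lie on the same side of the 4 uninjured ones, and swimming library 2 reaches 8209 CPM for ENSRNOG00000019745.

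How far each contused group carried the 952 called genes was read from its own change against uninjured. The 3 changes share the uninjured libraries, and all 3 enter the mean that chose the genes, so these values are a description. Among the 349 higher genes the median log2 change was 0.53 in unexercised contused rats, 0.90 after swimming and 0.64 after walking. Among the 603 lower genes it was -0.42, -0.75 and -0.51 in the same order. Over all genes tested the medians were 0.01, 0.04 and 0.02. The change had the direction of the mean in all 3 groups for 349 of the 349 higher genes and 602 of the 603 lower ones. Over all genes tested this held for 8353 of 13398.

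**Figure D3:**
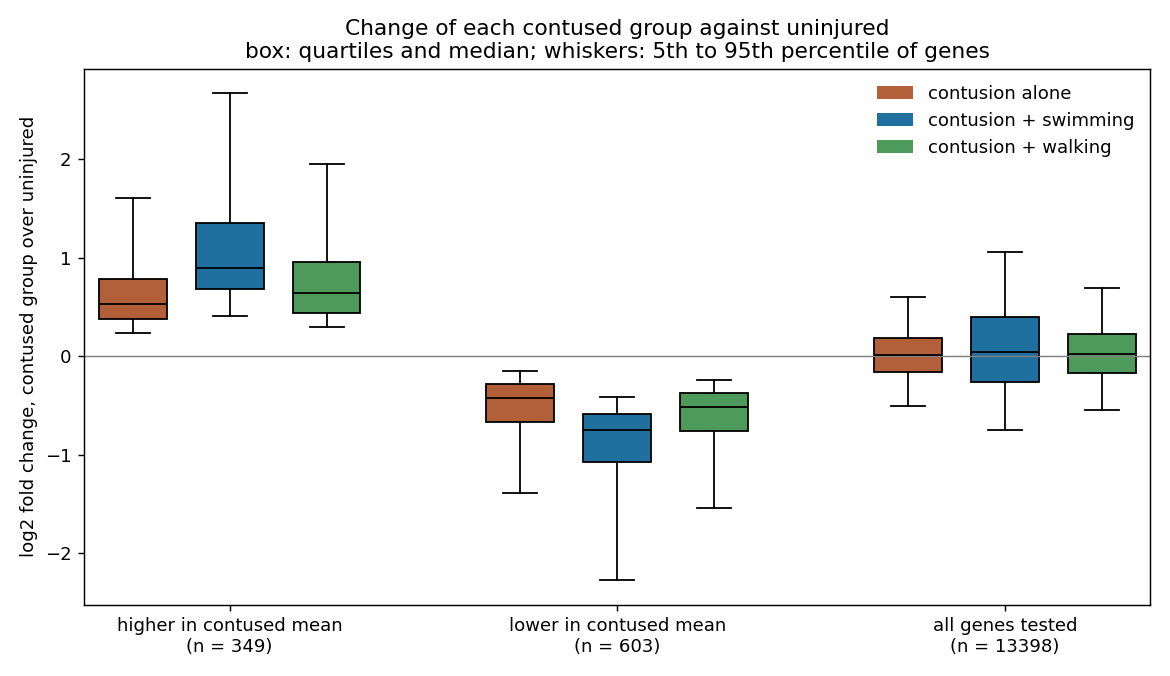
Log2 fold change of each contused group over uninjured, for genes called higher in the mean of the contused groups, genes called lower, and all genes tested. Boxes give quartiles and median over genes and whiskers the 5th to 95th percentile. Medians among higher genes were 0.53 without exercise, 0.90 after swimming and 0.64 after walking.

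Swimming had the largest of the 3 changes for 285 of the 349 higher genes (81.7%) and for 523 of the 603 lower genes (86.7%). Over all genes tested the share was 61.2%. Unexercised contused rats had the smallest change for 234 higher and 410 lower genes, and for 6328 of all 13398 genes tested. The smallest of the 3 changes was at least 50% of the largest, in the same direction, for 211 higher genes (60.5%) and 301 lower genes (49.9%), against 17.5% of all genes tested. An unadjusted p under 0.05 in all 3 groups, in the same direction, was found for 706 genes, which is 5.27% of genes tested, and 246 of the higher and 357 of the lower called genes were among them.

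Each group by itself called very different numbers of genes against uninjured muscle at nearly the same SE. The SE rests on a spread per gene shared by all 20 libraries, so it does not show that the groups spread alike. Unexercised contused rats had 0 called genes with edgeR (0% of genes tested), with 1313 genes at an unadjusted p under 0.05 (9.8%). DESeq2 called 99 there and voom 24, and edgeR called 41 without swimming library 2, 14 without uninjured library 2 and 15 without uninjured library 3. It called 4 without walking library 1, and 1 each without swimming library 4 and without walking library 2. Swum rats had 2685 called genes (20%), nearly evenly split into 1338 higher and 1347 lower. With libraries scaled by their totals alone, they had 1185 higher and 776 lower. Without uninjured library 4 they had 1459. Walked rats had 22 higher and 40 lower genes, 62 together (0.463%). That number was 207 without swimming library 2, 38 without contusion library 1, 10, 5 and 30 without walking library 1, 3 or 4, and 14 and 7 without uninjured library 1 or 4. A call in a group and none in another does not show that they differ.

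The difference among the 3 contused groups was tested directly, with 2 degrees of freedom. The contrast leaves out the uninjured group, though all 20 libraries enter the fit and its estimate of spread. This difference passed for 113 genes, 0.843% of those tested (edgeR adjusted p below 0.05). Of the 952 genes called in the mean, 36 differed among contused groups (3.78%) and 916 did not pass; at an unadjusted p under 0.05 the test found 381 of the 952 (40.0%) and 17.2% of all genes tested. All 36 changed most after swimming, beside 81.7% of the higher and 86.7% of the lower called genes and 61.2% of all tested. The group that lay farthest from the middle one was swimming for 30 of the 36 and unexercised contusion for 6. Among all 113 it was swimming for 95 and unexercised contusion for 18. The 36 were chosen on these same group means, so their sizes are a description. The 13 higher ones had median log2 changes of 0.25 without exercise, 1.08 after swimming and 0.51 after walking. The 23 lower ones had -0.15, -0.86 and -0.35 in the same order. The number of genes that differed rested on single libraries, as it ran from 1 to 481 when any of the 16 libraries was left out and moved by over 1.5 times in all 16 cases. It was 481 without walking library 1, 36 without contusion library 3, 19 without swimming library 3, and 71 and 59 without uninjured library 1 or 4. In the other 11 cases it was 5 or fewer. DESeq2 called 791 genes and voom 1194.

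Each contused library was set against the range of the 4 uninjured libraries. For 330 genes, 2.46% of those tested, all 12 contused libraries lay outside that range on the same side. In 125 of them (0.933% of genes tested) the contused libraries were higher and in 205 (1.53%) lower. Of these 330 genes, 290 were also called by the test, 101 higher and 189 lower. The called genes were chosen on these same 16 libraries, so how often a contused library lay beyond the range is a description for them. Over all called genes the median number of contused libraries beyond the uninjured range was 11 of 12, and at least 9 lay beyond it for 316 of the 349 higher genes and 510 of the 603 lower ones, against 7.87% and 8.64% of all genes tested. Fewer than 6 lay beyond it for 1 higher gene and 16 lower genes.

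By library the shares differed, and they too come from the libraries that chose the genes. Swimming libraries 1 to 4 lay above the uninjured range in 99.1%, 94.0%, 91.1% and 96.8% of the higher genes. Walking libraries 1 to 4 did so in 96.3%, 82.8%, 91.4% and 74.5%, and unexercised contused libraries 1 to 4 in 72.5%, 79.1%, 90.5% and 82.8%. Walking library 4 had the lowest share of the walked libraries, and contusion library 3 the highest of the unexercised ones. Over all genes tested, 19.5% to 34.3% lay above the uninjured range in a contused library. Below the range, of the lower genes, lay 91.7% to 98.2% in swimming, 71.3% to 94.7% in walking and 68.2% to 82.3% in unexercised contused libraries, against 20.0% to 32.6% of all genes tested.

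**Figure D4:**
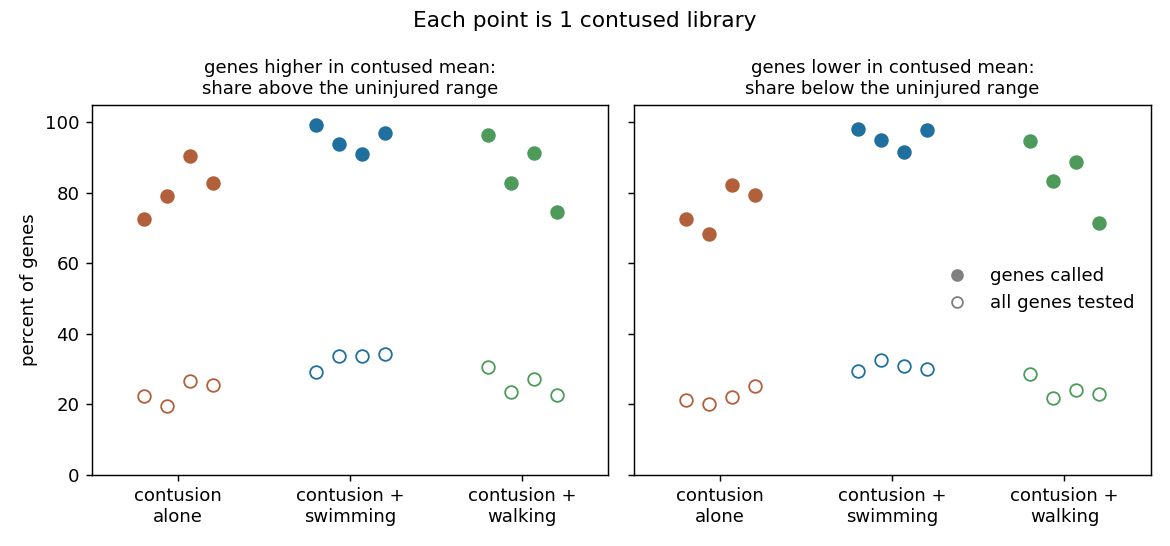
Percent of genes beyond the range of the 4 uninjured libraries in each contused library: above it for the genes called higher (left) and below it for the genes called lower (right), as filled points, with the same share of all genes tested as open points. Swimming libraries lie between 91.1% and 99.1% on the left and unexercised contused libraries between 72.5% and 90.5%.

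A complete presence or absence was not found for any gene in the table. There were 0 genes with no count in the 4 uninjured libraries and a count in each of the 12 contused ones, and 0 genes of the opposite kind. All 13398 genes tested had a count in at least 1 contused and 1 uninjured library. The spread between libraries of a group, as the median SD of log2(CPM + 0.5) over all genes tested, was 0.20 in unexercised contused, 0.26 in swum and 0.23 in walked rats, and 0.21 in uninjured rats.

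Calls were more frequent among the most than among the least abundant genes, and lower genes outnumbered higher ones in all 10 classes. The tested genes were ranked on mean abundance and cut into 10 classes. In class 10, the most abundant, 43 genes rose and 115 fell, which is 11.8% of that class. In class 9 the numbers were 45 and 102. In class 8 they were 63 and 81, in class 7 they were 41 and 78, in class 5 they were 41 and 57, and in class 1, the least abundant, 7 and 20, or 2.01%. The median SE was 0.12 in class 10 and 0.45 in class 1, so smaller changes could pass among abundant genes. The median log2 change was -0.07 in class 10 and 0.18 in class 1. By group, class 10 had medians of -1.64e-03 without exercise, -0.17 after swimming and -0.03 after walking.

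**Figure D5:**
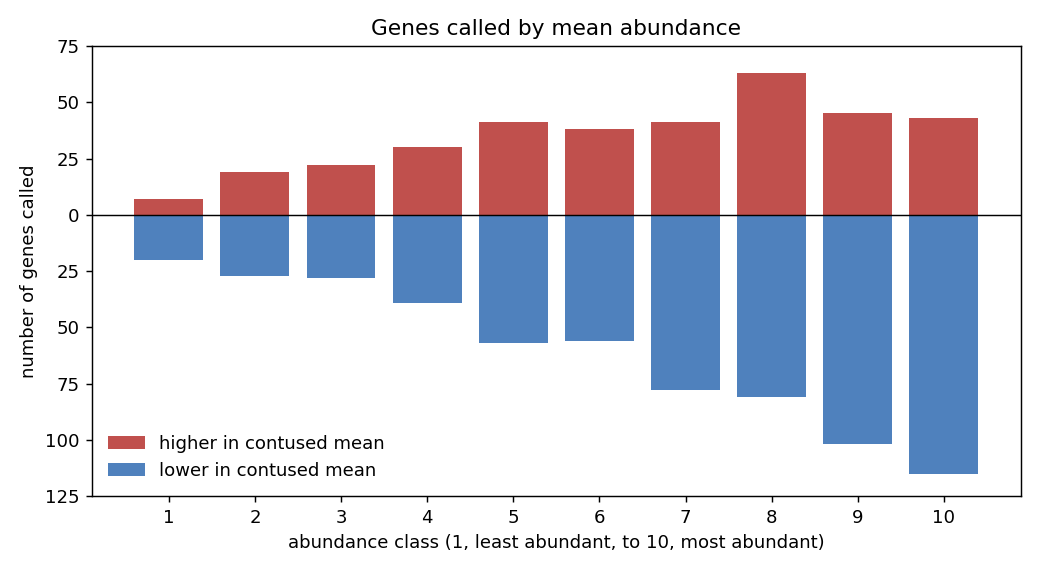
Number of genes called higher (above the line) or lower (below the line) in the mean of the contused groups against uninjured, in 10 classes of mean abundance from 1, the least abundant, to 10, the most abundant. In class 10, 43 genes are higher and 115 lower.

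The most abundant transcripts were also counted by themselves. Of the 50 genes with the highest mean CPM over the 16 libraries, 4 rose, 0 fell and 46 did not pass. Over all genes tested, 7.11% were called, 2.6% higher and 4.5% lower. Their median log2 change was 0.05, beside 0.03 for all genes tested. The share of a library's counts in its own 50 most abundant genes was 47.4 ± 2.42% in contused muscle (SD, n = 12) and 45.5 ± 1.15% in uninjured muscle (SD, n = 4). The exact two-sided permutation p was 0.151 over 1820 choices, of which the smallest possible is 0.000549, so the difference of 1.97 percentage points did not exceed the spread between libraries. By group the share was 49.1 ± 2.17% without exercise, 46.0 ± 2.52% after swimming and 47.2 ± 2.01% after walking (SD, n = 4 each).

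Complete transection is the other injury of the series, and it was set directly against the mean of the contused groups. Transection differed from that mean at 4015 genes, 1968 higher and 2047 lower, or 30% of genes tested (edgeR adjusted p below 0.05). This split rested on the scaling. With libraries scaled by their totals alone, 370 genes were higher and 4537 lower, and 2417 of the 4015 kept their call and direction. The counts that follow use the scaling of the main fit. Of the 349 genes higher in the contused mean, transection lay farther in the same direction at 87 and lay lower at 50. It did not differ beyond the test's threshold at 212, so that 39.3% were called. Of the 603 lower genes, transection lay farther down at 144, lay higher at 75 and was not called at 384, so that 36.3% were called. This test and the one that chose the genes share the contused libraries. Side by side, with the same uninjured controls, the 349 higher genes had a median log2 change of 0.77 after transection and 0.70 in the contused mean, and the 603 lower genes -0.62 and -0.56.

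Among the named genes, both lower ones were lower still after transection. ENSRNOG00000001736 stood at 1.29, 0.837, 0 and 0.951 CPM in transected rats, a log2 difference of -2.45 from the contused mean (SE 0.56, edgeR adjusted p = 3.36e-03). ENSRNOG00000007943 stood at 0.679, 0, 0.309 and 0.634 CPM, a log2 difference of -1.58 (SE 0.52, adjusted p = 0.0267). In neither did transected libraries lie below every contused one. ENSRNOG00000019745, at 1202, 1904, 1377 and 965 CPM after transection, differed by a log2 value of 1.60 that did not pass (edgeR adjusted p = 0.126). ENSRNOG00000013552 stood at 17.8, 8.84, 6.80 and 11.2 CPM after transection, below all 4 walked rats, and its log2 difference of -1.52 did not pass (adjusted p = 0.124). Transected muscle was taken at 8.5 weeks, and the contused mean includes exercised rats. Injury, time and exercise therefore cannot be told apart in this comparison.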

How the data were processed

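The authors deposited whole-number counts per gene, not normalised, for 20 libraries from poly-A RNA made with a stranded kit, per the labels' protocols. The tools FastQC 0.10.1 and HTSeq, and the genome build rn6, come from the submitters' processing notes; an aligner, annotation and strand setting are not given in the sources used here. Overlapping genes and near-identical copies may share counts. Groups and columns were matched by label. The table held 24613 genes, 18618 with a count, and 0 rows naming no gene. Library pairs within a group differed beyond counting error (chi-square per degree of freedom 26.5 to 517 over 24 pairs).

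All 20 libraries entered a fit in edgeR 4.0.16 (R 4.3.3) with a mean per group, 15 residual degrees of freedom, trimmed-mean-of-M-values scaling, filterByExpr at a minimum count of 10 and robust quasi-likelihood estimation. Calls were made at a Benjamini-Hochberg adjusted p below 0.05. SE is the log2 fold change over the square root of F. CPM was computed from the deposited counts with scaled library sizes. Components used log2 CPM with a prior count of 2. DESeq2 1.42.0 and voom in limma 3.58.1 were alternatives. Figures used matplotlib 3.10.9. The fits were checked on simulated data.

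The groups, the 45 gene lists and the tests were chosen with earlier results of these data known. The lists need symbols and were not used. The named identifiers are the 2 highest and 2 lowest log2 fold changes among called genes that averaged 1 CPM or more and whose contused and uninjured libraries did not overlap. No label says that replicate numbers pair the animals. Deviations of same-numbered libraries correlated at -0.29 to 0.43 over 24 pairs, and those of different-numbered libraries at -0.38 to 0.33 over 72. These ranges do not settle whether the numbers pair animals.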

Additional observations from a re-analysis of the deposited data

Results flagged for a closer look

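Library totals, scaling factors, shares of abundant genes and the CPM of the named identifiers made 32 groups of 4 values. In 5 of them a library stood apart by a wide gap; about 1 in 20 groups, or 1.6, does so by chance. For ENSRNOG00000019745 it was swimming library 2, at 8209 CPM beside 494 CPM in the nearest swum library. For ENSRNOG00000001736 it was contusion library 3, at 1.51 CPM beside 7.65 CPM. For ENSRNOG00000007943 it was contusion library 2, at 3.07 CPM beside 1.61 CPM. Walking library 4 had a total of 36604027 counts, and the nearest walked library 23665744. Uninjured library 4 had a scaling factor of 0.982, beside 1.08 in the nearest uninjured library, and it also lay farthest from the contused ones on the first component.

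The test among the contused groups found 113 genes that differed between them, of which 36 were also called in their mean against uninjured. All 36 changed most after swimming, a description since they were chosen on these same group means. The group farthest from the middle one was swimming for 30 of them and unexercised contusion for 6. The number of genes that differed ran from 1 to 481 with a library left out.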

How the results depend on the processing

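The mean of the contused groups gave 952 called genes. The number was 569 with the 12 contused libraries as 1 group, 1546 with DESeq2 and 1456 with voom; DESeq2 kept 942 of the 952 genes in the same direction and voom 869. It was 1658 with the unexercised group left out of the mean, 150 with the swimming group left out, and 1435 without transection library 3 and swimming library 2, an alternative chosen after seeing the data. Median-of-ratios scaling, library totals, no filter on counts, a minimum mean of 1 CPM, the 16 libraries alone and leaving out the walking group gave 707 to 1053. With a library left out in turn the range was 172 to 1142. The replicate number as a block gave 904 for the mean, 1 for unexercised contusion and 1 for the difference among contused groups, and moved no other number of calls by over 1.5 times; of 16 libraries, 4 correlated best with their own number. The cause of these shifts was not tested.

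For unexercised contusion the number was 12 with library totals, 3 with the 16 libraries alone, 99 with DESeq2, 24 with voom and 46 without the 2 libraries above; with a library left out it was 0 to 41. For swimming it was 1459 to 2778 with a library left out and 1961 to 3209 otherwise. The 1961 came with library totals alone, as 1185 higher and 776 lower genes. For walking it was 41 without a filter, 25 with the 16 libraries alone, 375 with DESeq2, 388 with voom, 318 without the 2 libraries above and 5 to 207 with a library left out. For the difference among contused groups it was 49 with median-of-ratios scaling, 1 with library totals, 24 without a filter, 217 with the 16 libraries alone, 791 with DESeq2, 1194 with voom and 1 to 481 with a library left out. Transection against the contused mean gave 3524 to 4907. The 4907 came with library totals alone, as 370 higher and 4537 lower genes.

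ENSRNOG00000019745, ENSRNOG00000013552 and ENSRNOG00000001736 kept their direction and their call in all 29 alternatives. The first 2 came near the threshold without uninjured library 4, with edgeR adjusted p of 0.0440 and 0.0491. ENSRNOG00000007943 lost its call in 3 alternatives. Its edgeR adjusted p was 0.0863 with the 12 contused libraries as 1 group, 0.205 without the swimming group and 0.0532 without uninjured library 4. The difference in the share of the 50 most abundant genes was 1.44 to 2.36 percentage points with a library left out (exact permutation p 0.0872 to 0.327), and 0.836 for 10 and 1.98 for 100 genes. The median SE was 0.45 in class 1, the least abundant genes; depth was not varied.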
